A study of Mus musculus with 8 samples.

Results

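The genes described here are 10 genes of endothelial cells, the cells that line blood and lymph vessels: *Pecam1*, *Cdh5*, *Vwf*, *Kdr*, *Tie1*, *Tek*, *Egfl7*, *Emcn*, *Esam* and *Cldn5*. They were chosen by symbol from the 40840 genes in the count tables, by a rule with no threshold on a measured value, though earlier results of these data were known when the list was made. All 10 were found, and all 10 passed the filter on low counts that left 19104 genes for testing. They were read by RNAseq in whole testes, taken 12 days after birth (P12), of 4 mice per genotype on a C57/BL6 background (C57BL/6J in the study's methods), wild type or *Tra2b-cPEko*, lettered A to D in each. In the study's methods, wild type mice carry 1 floxed allele of the *Tra2b* poison exon (*Tra2bPE* fl/+) and no Cre, whereas *Tra2b-cPEko* mice carry 1 floxed allele, 1 allele already deleted through the father's germline, and the *Vasa-Cre* transgene (fl/-;*Vasa-Cre*). A poison exon is an exon whose inclusion sends the transcript to decay. *Vasa-Cre* is active in germ cells, so the endothelial cells of a *Tra2b-cPEko* testis keep 1 floxed, undeleted poison exon beside the deleted allele, and those of a wild type testis keep both copies of the exon. The comparison asks whether RNA from vessels in the testis differed between mice of these genotypes. Removal of the exon from germ cells, loss of 1 copy in the vessel cells and the transgene go together. The comparison cannot tell them apart. No value here comes from sorted endothelial cells, and in RNA from a whole organ fewer cells of a type and less RNA per cell cannot be told apart.

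In the testis, blood vessels run in the interstitium between the seminiferous tubules and do not enter the tubules, where the germ cells lie. Endothelial cells hold together through adherens and tight junctions, built from proteins such as VE-cadherin and claudin-5. They sense growth factors of the VEGF and angiopoietin families through receptor tyrosine kinases, which direct vessel growth and later vessel stability. They also store and secrete proteins that act in blood clotting and in the vessel wall.

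Many endothelial genes are known targets of ETS transcription factors, which bind the core letters GGAA. RefSeq promoter windows on GRCm38.p6, each the 250 bases before a transcription start, were found for 6 of the 10 genes (*Egfl7*, *Emcn*, *Tek*, *Tie1*, *Kdr* and *Cldn5*) and hold 8 windows in all, with 3 for *Egfl7*. The other genes, *Pecam1*, *Cdh5*, *Vwf* and *Esam*, had none in that table. The windows of the 3 receptor tyrosine kinase genes are shown because these genes form 1 functional group, and each is written 5′ to 3′ on the strand of its gene. Capitals mark CAGGAA or CCGGAA, the longer forms searched, which read TTCCTG and TTCCGG on the opposite strand. The *Kdr* window lies at chr5:75978456-75978705 on the minus strand, the *Tie1* window at chr4:118489850-118490099 on the minus strand, and the *Tek* window at chr4:94739039-94739288 on the plus strand.
Kdr: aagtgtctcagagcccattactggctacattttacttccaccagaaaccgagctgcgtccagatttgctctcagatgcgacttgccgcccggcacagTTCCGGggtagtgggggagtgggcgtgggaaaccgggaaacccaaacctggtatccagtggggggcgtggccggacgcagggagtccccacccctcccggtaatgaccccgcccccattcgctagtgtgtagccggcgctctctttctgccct
Tie1: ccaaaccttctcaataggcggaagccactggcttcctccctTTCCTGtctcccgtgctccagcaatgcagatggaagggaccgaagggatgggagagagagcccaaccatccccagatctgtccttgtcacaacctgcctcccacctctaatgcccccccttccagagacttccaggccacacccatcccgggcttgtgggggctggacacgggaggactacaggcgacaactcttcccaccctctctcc
Tek: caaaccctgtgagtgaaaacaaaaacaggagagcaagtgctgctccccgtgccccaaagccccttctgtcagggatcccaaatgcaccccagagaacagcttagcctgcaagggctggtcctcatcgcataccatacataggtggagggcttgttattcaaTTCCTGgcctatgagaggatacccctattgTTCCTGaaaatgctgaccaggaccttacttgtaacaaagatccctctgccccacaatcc

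The *Kdr* window holds 1 CCGGAA, the *Tie1* window 1 CAGGAA and the *Tek* window 2 CAGGAA, counted on both strands. GGAA alone, which the longer forms contain, was found 4 times before *Kdr*, 7 times before *Tie1* and 2 times before *Tek*. Among the other windows, *Emcn* had 2 CAGGAA, the *Egfl7* windows had 2, 1 and 0, and *Cldn5* had no GGAA. A window with CAGGAA or CCGGAA was found for 5 of the 6 genes, in 6 of the 8 windows. Such letters are common, since 35.1% of all 32851 windows of this length hold one of the longer forms and 93.4% hold GGAA. The letters AGATAA, to which factors of the GATA family bind, were in none of the 8 windows, against 9.99% of all windows. The letters TATAAA, of the core promoter element of that name, were likewise in none, against 12.4% of all windows. These matches describe the letters and are not measured binding.

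Values are given as CPM, the count of a gene per 1000000 counts of its library, with library sizes scaled by TMM. Between 36757386 and 59101569 reads fell on genes per library, and the 10 genes had between 129 counts (*Emcn*) and 3933 counts (*Cdh5*) in a library. *Tra2b* itself had 156 to 176 CPM in wild type and 190 to 209 CPM in *Tra2b-cPEko* mice. Its log2 fold change, *Tra2b-cPEko* over wild type, was 0.27 (SE 0.05). The edgeR test used below gave it an adjusted p of 0.0552, above the threshold of 0.05, whereas DESeq2 gave an adjusted p of 0.000195. A count over the whole *Tra2b* gene does not separate transcripts with the poison exon, so it does not check the genotype labels. The defining endothelial markers were present in all 8 libraries, which fits the label of a whole organ with vessels.

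None of the 10 endothelial genes was called different between the genotypes by edgeR's quasi-likelihood test at an adjusted p under 0.05, against 0.157% of all genes tested (30 of 19104). DESeq2 also called 0 of the 10, against 2.79% of the 18149 genes it gave an adjusted p. No gene of the 10 reached an unadjusted edgeR p under 0.05, which 15.3% of all genes did. The genotypes overlapped in their values for 10 of the 10 genes, whereas 8.54% of all genes tested had no overlap. On the log2 scale 8 genes had a higher fitted mean in *Tra2b-cPEko* mice and 2 a lower one, and the share of all genes with a higher mean was 49.7%. The median log2 fold change of the 10 genes was 0.03, and that over all genes tested was -0.0011. A p above the threshold does not show that levels were alike, so the 95% interval of each log2 fold change is given with its gene. Taken over the 10 genes these intervals reached from -0.25 (*Emcn*) to 0.39 (*Cldn5*), which are folds of 0.843 and 1.31.

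**Figure D1:**
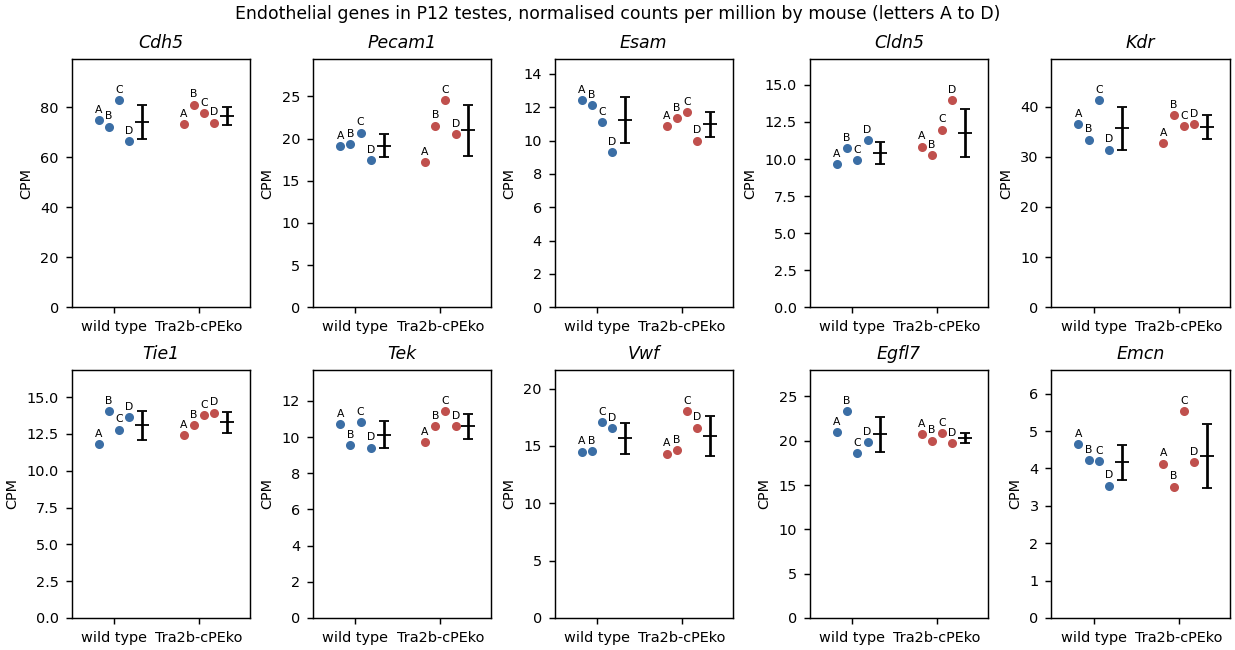
Normalised level (y axis, CPM, from 0) of each of the 10 endothelial genes in each mouse, with wild type in blue, *Tra2b-cPEko* in red and mice lettered A to D. The black bar is the mean ± SD of 4 mice, and in every panel the points of the genotypes overlap, as for *Cdh5* with 66.5 to 82.7 CPM in wild type and 73.3 to 81.1 CPM in *Tra2b-cPEko* mice.

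The first group of genes encodes proteins of the contacts between endothelial cells. *Cdh5* (chromosome 8, 104828231 to 104871143, plus strand, GRCm39) encodes VE-cadherin, the adhesion protein of endothelial adherens junctions. Its level was 74.7, 72.2, 82.7 and 66.5 CPM in wild type mice A to D and 73.3, 81.1, 77.5 and 73.9 CPM in *Tra2b-cPEko* mice A to D. Both the highest value (wild type C) and the lowest (wild type D) were in wild type mice, and the mutant values lay between them. The means were 74.0 ± 6.74 and 76.5 ± 3.61 CPM (SD, n = 4 each). The log2 fold change, *Tra2b-cPEko* over wild type as for every gene here, was 0.05 (SE 0.06, 95% interval -0.09 to 0.18, edgeR adjusted p = 0.765, exact permutation p = 0.543). With the most counts of the 10 genes, *Cdh5* also had the narrowest interval, from -6.08% to 13.5%.

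*Pecam1* (chromosome 11, 106543689 to 106641454, minus strand) encodes CD31, an adhesion molecule of endothelial contacts that platelets and leukocytes also carry. Wild type mice A to D had 19.1, 19.4, 20.7 and 17.4 CPM, and *Tra2b-cPEko* mice A to D had 17.3, 21.55, 24.5 and 20.6 CPM. The mutant group held both the lowest mouse, A, and the highest, C, so it spanned the whole wild type range. Means of 19.2 ± 1.35 and 21.0 ± 2.99 CPM (SD, n = 4) gave a log2 fold change of 0.13 (SE 0.10, 95% interval -0.08 to 0.34, edgeR adjusted p = 0.543, exact permutation p = 0.371).

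*Esam* (chromosome 9, 37439344 to 37449615, plus strand), which encodes an adhesion molecule of endothelial tight junctions, was measured at 12.4, 12.1, 11.1 and 9.30 CPM in wild type mice A to D. In *Tra2b-cPEko* mice A to D it was measured at 10.9, 11.3, 11.7 and 9.996 CPM. All 4 mutant values fell inside the wild type range. The log2 fold change was -0.03 (SE 0.10, 95% interval -0.24 to 0.18, edgeR adjusted p = 0.913, exact permutation p = 0.80), with means of 11.2 ± 1.41 and 11.0 ± 0.741 CPM (SD, n = 4).

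*Cldn5* (chromosome 16, 18595597 to 18597012, plus strand, 1 exon) encodes claudin-5, the main claudin of endothelial tight junctions. Wild type mice A to D had 9.64, 10.7, 9.93 and 11.3 CPM. *Tra2b-cPEko* mice A to D had 10.8, 10.2, 11.99 and 13.95 CPM. Mutant mouse D stood highest and mutant mouse C next, while mutant mice A and B lay among the wild type values. Of the 10 genes, *Cldn5* had the largest fitted log2 fold change, 0.18 (SE 0.10, 95% interval -0.04 to 0.39), with an edgeR unadjusted p of 0.102, an adjusted p of 0.422 and an exact permutation p of 0.171. Its means were 10.4 ± 0.745 and 11.8 ± 1.63 CPM (SD, n = 4). The interval ran from -2.77% to 31.3%.

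The second group encodes receptor tyrosine kinases, and their promoter windows are those printed above. *Kdr* (chromosome 5, 76093487 to 76139884, minus strand) encodes VEGFR2, the main signalling receptor for VEGF-A on endothelial cells. Its values were 36.5, 33.45, 41.2 and 31.4 CPM in wild type mice A to D and 32.7, 38.3, 36.2 and 36.5 CPM in *Tra2b-cPEko* mice A to D. As with *Cdh5*, wild type C was highest, wild type D lowest, and the mutant mice lay within these. The means differed by less than either SD, at 35.7 ± 4.27 and 35.9 ± 2.36 CPM (n = 4), with a log2 fold change of 0.01 (SE 0.08, 95% interval -0.17 to 0.19, edgeR adjusted p = 0.967, exact permutation p = 0.886).

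*Tek* (chromosome 4, 94627291 to 94763224, plus strand) encodes TIE2, the receptor for angiopoietins. It had 10.7, 9.56, 10.8 and 9.42 CPM in wild type mice A to D and 9.74, 10.6, 11.4 and 10.6 CPM in *Tra2b-cPEko* mice A to D. Mutant C was the highest mouse and wild type D the lowest, with the remaining mice interleaved. The log2 fold change was 0.07 (SE 0.08, 95% interval -0.11 to 0.24, edgeR adjusted p = 0.746, exact permutation p = 0.40) on means of 10.1 ± 0.749 and 10.6 ± 0.692 CPM (SD, n = 4).

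*Tie1* (chromosome 4, 118328385 to 118347261, minus strand) encodes a receptor related to TIE2 that modulates its signalling. Values of 11.8, 14.05, 12.8 and 13.6 CPM were found in wild type mice A to D, and of 12.4, 13.1, 13.8 and 13.95 CPM in *Tra2b-cPEko* mice A to D. Every mutant value was inside the range set by wild type A and wild type B. Means were 13.1 ± 0.991 and 13.3 ± 0.711 CPM (SD, n = 4), and the log2 fold change was 0.02 (SE 0.08, 95% interval -0.14 to 0.19, edgeR adjusted p = 0.913, exact permutation p = 0.714).

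The third group encodes secreted and surface proteins. *Vwf* (chromosome 6, 125523737 to 125663642, plus strand) encodes von Willebrand factor, which endothelial cells and megakaryocytes store and release and which tethers platelets. Wild type mice A to D had 14.5, 14.5, 17.1 and 16.6 CPM, and *Tra2b-cPEko* mice A to D had 14.3, 14.65, 18.04 and 16.6 CPM. In both genotypes 2 mice lay near 14.5 CPM and the other two at 16.6 CPM or above. The means, 15.7 ± 1.34 and 15.9 ± 1.74 CPM (SD, n = 4), differed by less than the spread, with a log2 fold change of 0.02 (SE 0.09, 95% interval -0.17 to 0.21, edgeR adjusted p = 0.935, exact permutation p = 0.857).

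*Egfl7* (chromosome 2, 26468286 to 26486789, plus strand) encodes a secreted protein of the endothelial matrix, and 1 of its introns hosts the microRNA gene *Mir126a*. It was measured at 20.97, 23.35, 18.6 and 19.9 CPM in wild type mice A to D and at 20.8, 20.02, 20.8 and 19.7 CPM in *Tra2b-cPEko* mice A to D. The 4 mutant mice lay close together, with a coefficient of variation of 2.75%, inside a wild type range with one of 9.66%. The log2 fold change was -0.02 (SE 0.07, 95% interval -0.18 to 0.13, edgeR adjusted p = 0.904, exact permutation p = 0.771) on means of 20.7 ± 2.001 and 20.3 ± 0.560 CPM (SD, n = 4).

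*Emcn* (chromosome 3, 137046794 to 137138999, plus strand) encodes endomucin, a sialomucin of the surface of venous and capillary endothelium. Its level was 4.66, 4.23, 4.21 and 3.54 CPM in wild type mice A to D and 4.13, 3.51, 5.54 and 4.17 CPM in *Tra2b-cPEko* mice A to D. Mutant C was the highest mouse and mutant B the lowest, so the mutant group again spanned the wild type range. With the fewest counts of the 10 genes, *Emcn* had the widest interval, from -15.7% to 29.8%, around a log2 fold change of 0.07 (SE 0.14, 95% interval -0.25 to 0.38, edgeR adjusted p = 0.869, exact permutation p = 0.971). The means were 4.16 ± 0.463 and 4.34 ± 0.854 CPM (SD, n = 4), and counting error alone gives a coefficient of variation of 7.11% at the wild type depth and 7.58% at the mutant depth.

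**Figure D2:**
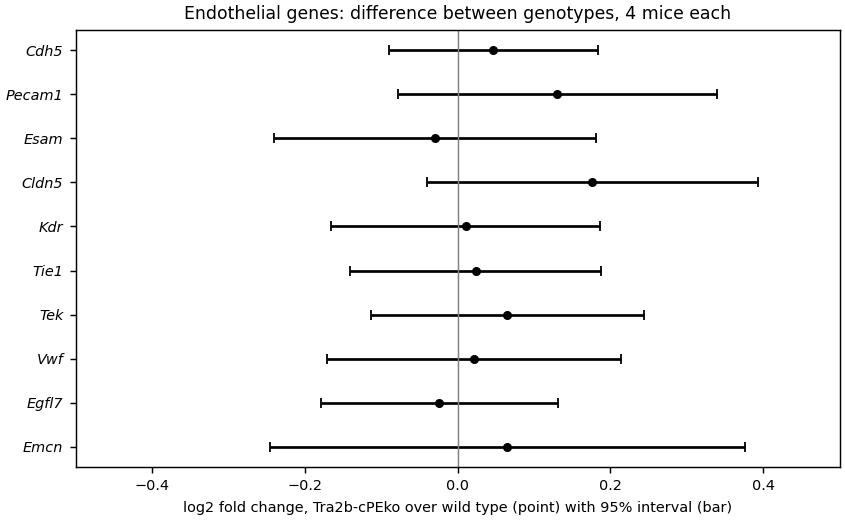
Fitted log2 fold change (x axis, *Tra2b-cPEko* over wild type) of each of the 10 endothelial genes (y axis), as a point with a bar for its 95% interval from edgeR, 4 mice per genotype. Every bar crosses 0, with *Cldn5* reaching highest (0.39) and *Emcn* lowest (-0.25).

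Gene models on GRCm39 place other genes on the opposite strand within *Cdh5*, *Vwf*, *Kdr*, *Tie1* and *Egfl7*, such as *Agpat2* beside *Egfl7*. How the counting treated strand is not given in the sources used here, so a part of the reads of these 5 genes may belong to the partner. *Egfl7* also overlaps *Gm20532* and *Mir126a* on its own strand, where no strand setting tells the genes apart. No near-identical copy of any of the 10 genes was found among annotated transcripts, at 95% identity over at least 50% of the transcript. Among other genes named in this report, such matches were found for *Tra2b* (*Gm10254*, *Gm14639* and *Gm61009*), *Mocs2* (*Itga1*) and *Tnfaip8* (*C030005K06Rik*). Genes on the opposite strand also overlap *Tra2b*, *Angptl2*, *Eng*, *Epas1*, *Thbd*, *Efnb2*, *Abcc9*, *Mcam*, *Mocs2*, *Ntrk3*, *Tnfaip8* and *Flt4*. The same limit on strand holds for them.

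Levels of different genes were compared as CPM per kilobase of the canonical transcript. These lengths are from GENCODE, whereas the study's methods name an annotation from NCBI, so counts and lengths may rest on different gene models. *Cdh5* was highest, with 18.4 ± 1.68 CPM per kilobase in wild type and 19.0 ± 0.898 in *Tra2b-cPEko* mice (SD, n = 4), and lay above *Egfl7* without overlap over the 8 mice. *Egfl7* followed at 14.2 ± 1.37 and 13.9 ± 0.384 CPM per kilobase and did not overlap the next gene, *Cldn5*, at 7.34 ± 0.526 and 8.30 ± 1.15. The order then ran through *Kdr*, *Esam* and *Pecam1*, whose ranges overlapped from each gene to the next. *Kdr* at 6.02 ± 0.720 CPM per kilobase in wild type and *Esam* at 5.93 ± 0.742 did not separate, with *Kdr* the higher in 4 of 8 mice. *Cldn5* overlapped *Kdr* in range but exceeded it within each of the 8 mice. *Tie1* (3.19 ± 0.242 in wild type) stood apart from its neighbours on both sides, below *Pecam1* and above *Tek*. *Tek*, *Vwf* and *Emcn* were lowest, at 2.05 ± 0.151, 1.77 ± 0.152 and 1.59 ± 0.176 CPM per kilobase in wild type, with ranges that overlapped between neighbours. The place of *Egfl7* depends on the gene model, since dividing by all its annotated exons merged (8003 bases, against 1459 in the canonical transcript) moves it from rank 2 to rank 6. The same change of length puts *Tie1* at rank 5, above *Pecam1* at rank 7, whose merged exons hold 10002 bases against 3678 in the canonical transcript. Of the 3 receptor genes, *Kdr* was highest per length, then *Tie1*, then *Tek*, in both genotypes and with either length.

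**Figure D3:**
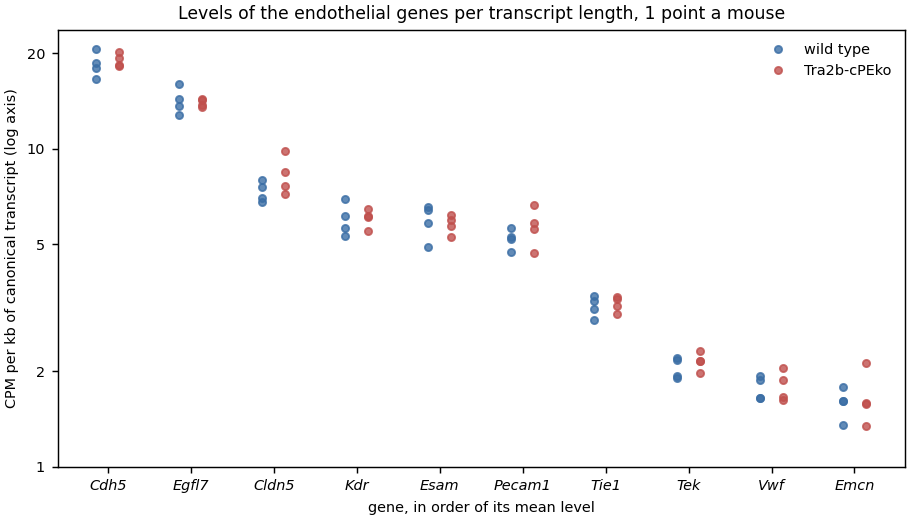
Level of each endothelial gene per length (y axis, CPM per kilobase of canonical transcript, log axis) in 8 mice, 1 point a mouse, wild type in blue and *Tra2b-cPEko* in red, ordered by mean level from left to right. *Cdh5* lies between 16.5 and 20.6 and *Emcn* between 1.34 and 2.11, and within each gene the colours overlap.

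To see whether the 10 genes moved together from mouse to mouse, each was centred on its own mean log2 CPM and the 10 values of a mouse were averaged. *Tra2b-cPEko* C had the highest average, 0.14, with all 10 genes above their own means and the highest value of *Pecam1*, *Vwf*, *Tek* and *Emcn*. Wild type D had the lowest average, -0.11, with 3 genes above their means and the lowest value of *Cdh5*, *Kdr*, *Tek* and *Esam*. *Tra2b-cPEko* A was next lowest at -0.07, with only *Egfl7* above its mean. The lowest and the highest mice were thus of different genotypes, but the next lowest mouse was of the same genotype as the highest. The other mice lay between -0.01 and 0.04. Averages by genotype were -0.02 ± 0.06 in wild type and 0.02 ± 0.09 in *Tra2b-cPEko* mice (SD, n = 4), so the genotypes differed by less than the SD of the mutant mice. Summed over the 10 genes, the level was 214.2 ± 12.4 CPM in wild type and 220.6 ± 10.6 CPM in *Tra2b-cPEko* mice, a sum in which *Cdh5* weighs most.

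**Figure D4:**
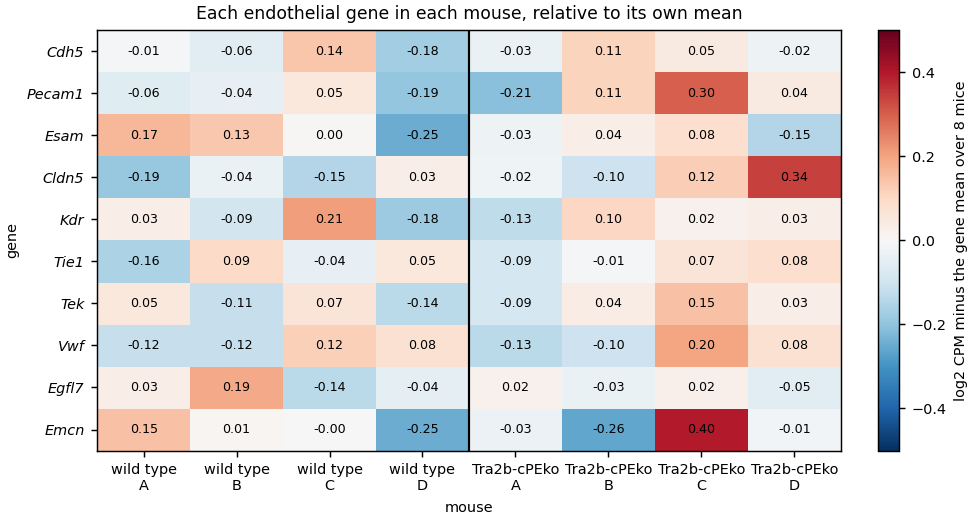
Log2 CPM of each endothelial gene (rows) in each mouse (columns) minus the gene's mean over 8 mice, from blue (lower) to red (higher). The column of *Tra2b-cPEko* C is above 0 for all 10 genes, whereas wild type D is above 0 for 3 of them.

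The 5 genes whose levels over the 8 mice were most like this average, out of 12279 genes that averaged 5 CPM or more, were *Mocs2* (Pearson's r 0.956, Spearman's rho 0.929), *Rcn1* (r 0.9496, rho 0.667), *Ntrk3* (r 0.949, rho 0.929), *Tnfaip8* (r 0.942, rho 0.976) and *Flt4* (r 0.940, rho 0.905). These correlations describe 8 libraries, were picked as the highest of many, and carry no test. *Mocs2* varied little, from 36.97 to 40.19 CPM. Its coefficient of variation was 1.95% in wild type mice, where counting error alone gives 2.35%. In *Tra2b-cPEko* mice it was 3.42%, against 2.50% from counting error. Without *Tra2b-cPEko* C and wild type D, r over the remaining 6 mice was between 0.807 (*Rcn1*) and 0.916 (*Flt4*). *Flt4*, which encodes the VEGF receptor VEGFR3 of lymphatic and some blood endothelium, was the only one of the 5 on a vascular list. It had 7.58, 7.12, 7.99 and 6.17 CPM in wild type mice A to D and 6.515, 7.35, 8.47 and 7.735 CPM in *Tra2b-cPEko* mice A to D. As in the average of the 10 genes, wild type D was lowest and *Tra2b-cPEko* C highest.

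Other genes of the vascular pathways were read from 7 lists, of ligands, receptors, transcription factors, surface and junction genes, arterial genes, lymphatic genes and pericyte genes. Of their 70 genes 69 were tested (*Sele*, an adhesion molecule of inflamed endothelium, had at most 12 counts), and edgeR called 0 of the 69 at an adjusted p under 0.05. An unadjusted edgeR p under 0.05 was reached by 4 genes (5.80%, against 15.3% of all genes), and 2 genes had no overlap between the genotypes (2.90%, against 8.54%). The fitted mean was higher in *Tra2b-cPEko* mice for 46 genes and lower for 23, with a median log2 fold change of 0.05.

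Among the 10 ligands, 8 had a higher and 2 a lower fitted mean, and none passed the test. *Vegfa*, the main ligand of the receptor that *Kdr* encodes, had 38.3 ± 2.77 CPM in wild type and 39.6 ± 2.32 CPM in *Tra2b-cPEko* mice (SD, n = 4; log2 fold change 0.05, SE 0.06, edgeR adjusted p = 0.748). For the TIE2 ligands, *Angpt1* was measured at 1.35 ± 0.326 and 1.52 ± 0.251 CPM and *Angpt2* at 7.14 ± 0.756 and 6.87 ± 0.517 CPM. *Angpt4*, also a TIE2 ligand, had the largest fold change of the list, with 6.09 ± 0.491 and 7.40 ± 1.47 CPM (log2 fold change 0.29, SE 0.13, edgeR adjusted p = 0.334). These 4 were picked out of the list as ligands of the receptors above, after their values were seen, and need not be all of them. *Angptl2*, an angiopoietin-like secreted protein with the highest CPM of the list, had 57.3 to 72.2 CPM in wild type and 60.7 to 75.3 CPM in *Tra2b-cPEko* mice.

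Of the 11 other endothelial receptor genes, 8 had a higher and 3 a lower fitted mean, and none passed the test. *Eng*, which encodes endoglin, a TGF-beta co-receptor, was measured at 56.2 ± 2.05 and 59.0 ± 1.52 CPM (log2 fold change 0.07, SE 0.04, edgeR adjusted p = 0.479).

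The 14 endothelial transcription factor genes had 8 higher and 6 lower fitted means, and *Sox7* was the one without overlap. *Sox7* encodes a SOX factor of vascular development and had 2.83, 2.53, 3.11 and 2.52 CPM in wild type mice A to D against 2.005, 2.23, 2.245 and 2.26 CPM in *Tra2b-cPEko* mice A to D. All 4 mutant values were below all 4 wild type values, on counts of 82 to 149 per library. The log2 fold change was -0.33 (SE 0.12, edgeR unadjusted p = 0.0189, adjusted p = 0.246, DESeq2 adjusted p = 0.256), so it did not pass the test over all genes. *Epas1*, which encodes the hypoxia-inducible factor HIF-2 alpha and had the highest CPM of this list, was measured at 254 ± 17.9 and 268 ± 6.71 CPM (edgeR adjusted p = 0.501, n = 4).

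In the remaining lists of vessel wall cells, 1 gene stood without overlap. *Abcc9* encodes SUR2, a subunit of the potassium channel of pericytes and smooth muscle, and had 11.8, 10.1, 13.99 and 12.6 CPM in wild type mice A to D against 14.1, 15.3, 16.8 and 16.3 CPM in *Tra2b-cPEko* mice A to D. Every mutant mouse was above every wild type mouse, though wild type C (13.99 CPM) and mutant A (14.1 CPM) almost met. The log2 fold change of 0.36 (SE 0.10, 95% interval 0.15 to 0.57) had an edgeR unadjusted p of 0.00254 and an adjusted p of 0.134, and DESeq2 called it with an adjusted p of 0.0306. *Kcnj8*, the pore subunit of the same channel, had 3.56 ± 0.240 and 4.34 ± 0.578 CPM (log2 fold change 0.29, edgeR unadjusted p = 0.0322, adjusted p = 0.284). It was picked out here as the partner of *Abcc9*, after its values were seen. The pericyte list held 7 higher and 1 lower fitted mean of 8, with a median log2 fold change of 0.05, and *Mcam*, an adhesion molecule with the highest CPM of that list, was at 126 ± 5.64 and 125 ± 5.37 CPM.

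The 16 other surface and junction genes tested had 10 higher and 6 lower fitted means, including *Thbd*, the thrombin receptor thrombomodulin, at 151 ± 17.0 and 158 ± 8.69 CPM. Both *Thbd* and *Epas1* stood above *Cdh5* (74.0 and 76.5 CPM). Which cells of the whole testis made their RNA was not resolved. The unadjusted p of *Ecscr*, an endothelial surface protein, was 0.0377 (edgeR adjusted p = 0.299, log2 fold change 0.24). It is the 1 gene of that list under 0.05 before adjustment. The 6 arterial genes had 2 higher and 4 lower fitted means, and *Efnb2*, the ephrin of arterial endothelium, had 21.2 ± 0.284 and 20.5 ± 2.005 CPM. Of the 4 lymphatic genes 3 had a higher fitted mean, and *Pdpn*, which encodes podoplanin and is also made by other cells, had 60.1 ± 3.70 and 56.6 ± 4.62 CPM. No arterial or lymphatic gene passed the test.

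Some of the 10 genes are also expressed by blood cells, and lists of blood and testis cells were summed in the same libraries. Of 8 platelet and megakaryocyte genes, 5 (*Ppbp*, *Gp1ba*, *Gp9*, *Gp6* and *Treml1*) had at most 6 counts in a library, and the list summed to between 8.52 and 12.1 CPM over the 8 mice. The largest part of that sum was 1 gene, *Pf4*, at 5.86 to 8.68 CPM. Red blood cell genes summed to between 26.2 and 138 CPM in wild type and between 25.1 and 82.4 CPM in *Tra2b-cPEko* mice, so this sum differed several-fold between mice of 1 genotype. The fitted mean was higher in *Tra2b-cPEko* mice for 0 of the 5 red blood cell genes tested, with a median log2 fold change of -0.54, and none passed the test. Macrophage genes had a higher fitted mean in *Tra2b-cPEko* mice for 11 of 11 genes, with a median log2 fold change of 0.24 and sums of 150 to 186 and 186 to 222 CPM. None of these was called by edgeR, though 6 of the 11 had an unadjusted edgeR p under 0.05, against 15.3% of all genes. DESeq2 called 2 of the 11, *Csf1r* and *Cx3cr1*, against 2.79% of the genes it gave an adjusted p. Peritubular genes had 6 of 6 fitted means higher, with a median of 0.12 and sums of 959 to 1082 and 1024 to 1227 CPM, and Leydig cell genes had 5 of 7 higher, with a median of 0.40. Of the Leydig cell genes *Lhcgr*, the luteinizing hormone receptor, had no overlap between the genotypes (24.1 ± 3.001 and 33.1 ± 4.93 CPM, log2 fold change 0.46, edgeR adjusted p = 0.131) and was called by DESeq2 with an adjusted p of 0.00851. *Hsd17b3*, an enzyme of testosterone synthesis, had a log2 fold change of -0.54 (edgeR adjusted p = 0.267). Sertoli cell genes had 4 of 10 higher and a median of -0.03, and germ cell genes 1 of 10 and -0.09. The median of the 10 endothelial genes was 0.03. Those of the blood and testis cell lists ran from -0.54 for red blood cell genes to 0.40 for Leydig cell genes. The latter rests on *Insl3*, and the part of cell composition in these values was not tested.

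**Figure D5:**
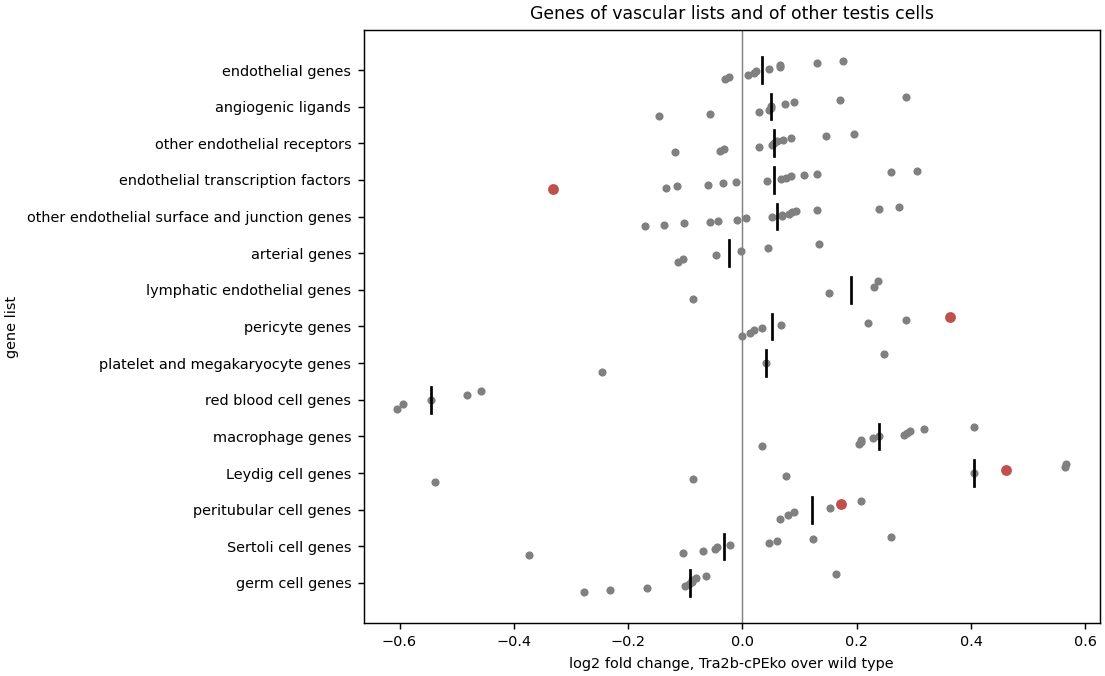
Log2 fold change (x axis, *Tra2b-cPEko* over wild type) of each tested gene (points) in each list (y axis), with the list's median as a black line and genes without overlap between the genotypes in red. The 10 endothelial genes cluster between -0.03 and 0.18, and the only red points in the vascular lists are *Sox7* and *Abcc9*.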

How the data were processed

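Whole testes of 8 mice (4 per genotype, P12) were measured by RNAseq. The authors made stranded, paired-end mRNA libraries, aligned reads to GRCm39 with HISAT2 2.2.1 and deposited raw counts per gene, 1 table per mouse. The submitters' processing notes also name HTSeq 2.0.2, whose summary-line form the tables carry (5 lines, left out here), while the methods name Salmon and DESeq2. The strand setting is not given in the sources used here. Reads on genes were 66.4% to 69.0% of all reads in the tables.

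The counts were fitted with edgeR 4.0.16 in R 4.3.3. Genes were kept by filterByExpr with a count of at least 10 and a total of at least 15, libraries were scaled by TMM (0.994 to 1.01), and genotype, the sole term, was tested with robust glmQLFit and glmQLFTest, edgeR's quasi-likelihood test. The Benjamini-Hochberg adjustment ran over the 19104 genes tested, and genes with an adjusted p under 0.05 are called. Intervals are 95% and come from the fitted SE. The exact permutation test is two-sided, on log2 CPM (prior count 2), over 70 arrangements of the 8 mice, with a smallest possible p of 0.0286. As alternatives, the test was replaced by DESeq2 1.42.0 or limma-voom (limma 3.58.1), TMM by RLE or upper-quartile scaling, and the filter by none or by a mean of 50 counts. Robust estimation was switched off, a block for the replicate letter was added, and each mouse was left out in turn. Positions and lengths are from GENCODE vM39 matched by symbol, and copies were searched with BLAST 2.17.0.

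Members and gene lists were chosen with earlier results of these data known. The genes named by rule are the 10 endothelial genes, in each vascular list the gene with the highest mean CPM and any gene called or without overlap, the 5 genes most like the endothelial average, and *Tra2b*. *Vegfa*, *Angpt1*, *Angpt2*, *Angpt4*, *Kcnj8*, *Ecscr*, *Sele*, *Pf4*, *Csf1r*, *Cx3cr1*, *Lhcgr*, *Hsd17b3*, *Insl3* and the 5 untested platelet genes were named outside this rule, after their values were seen. The methods describe the mice as independent. The labels name no batch.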

Additional observations from a re-analysis of the deposited data

Results flagged for a closer look

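Of 50 groups of 4 mice (25 named genes in 2 genotypes), 2 held a mouse that stood apart from the other three by more than Dixon's 95% critical value, where chance gives 2.5. *Angptl2* was at 75.3 CPM in *Tra2b-cPEko* B, against 60.7 to 62.6 CPM in the other mutant mice. *Sox7* was at 2.005 CPM in *Tra2b-cPEko* A, against 2.23 to 2.26 CPM in the other mutant mice, which are themselves below every wild type mouse. None of the 10 endothelial genes had such a mouse.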

How the results depend on the processing

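Under all 16 alternatives 0 of the 10 endothelial genes were called, and the lowest adjusted p of any of them was 0.310. The largest share of all genes called under any setting was 2.79% (DESeq2), so 0 of any 10 genes was a likely outcome. The median log2 fold change of the endothelial genes stayed between 0.0038 and 0.08. The count of called genes over the whole table was 30 with RLE factors as with TMM, 58 with upper-quartile factors, 507 with DESeq2, 11 with limma-voom, 123 with no low-count filter, 14 with a mean count of at least 50 and 12 without robust estimation, and the cause was not tested. Without 1 mouse it was between 3 (without *Tra2b-cPEko* D) and 84 (without wild type C). With the replicate letter as a block it was 67. Same-lettered mice did not deviate together (r between -0.14 and 0.12 over genes, and only D correlated best with its own letter), so the letters were not taken as a pairing.

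Leaving out 1 mouse turned the sign of the log2 fold change in 7 genes, none of them called: *Cdh5* (-0.0059 to 0.10), *Vwf* (-0.0486 to 0.0674), *Kdr* (-0.0501 to 0.0857), *Tie1* (-0.0233 to 0.05998), *Egfl7* (-0.0732 to 0.0387), *Emcn* (-0.0777 to 0.15) and *Esam* (-0.12 to 0.0193). *Pecam1* (0.04 to 0.21), *Tek* (0.02 to 0.10) and *Cldn5* (0.08 to 0.23) stayed above 0. Of 160 values of a gene under an alternative, 2 had an edgeR p under 0.05 before adjustment. These were *Pecam1* without *Tra2b-cPEko* A (log2 fold change 0.21, edgeR adjusted p = 0.342) and *Cldn5* without *Tra2b-cPEko* B (0.23, edgeR adjusted p = 0.310). Merging all exons, chosen after seeing the data, moved *Egfl7* from rank 2 to 6 in the order per length and 5 other genes by 1 or 2 ranks. *Emcn* had the fewest counts of the 10 genes, 129 to 259 per library.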
